A study of Mus musculus with 28 samples.

Results

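Oip5os1 is the mouse gene for Cyrano, a long noncoding RNA, and it is 1 of the 41549 genes counted in nuclear RNA after nuclei of the mouse motor cortex had been sorted. It was picked by its name after its levels in these libraries were known, so its own levels and fold changes are given as a description, with no test. The study used 7 mice, numbered 17 to 23, and each received the vector AAV-Cas9-miR-124-empty in the left motor cortex and AAV-Cas9-miR-124-g4 in the right. An adeno-associated virus (AAV) vector delivers a gene to cells without replicating itself, and Cas9 is a nuclease that cuts DNA where a guide RNA directs it. The sources used here do not say what g4 stands for, which promoter drives Cas9, or the strain and age of the mice. Nuclei were sorted by an HA tag into HA-positive nuclei, which the labels call positive for Cas9, and HA-negative nuclei. With 2 vectors and 2 fractions this gave 4 groups of 7 libraries, named here by vector and fraction. The empty vector was always on the left and g4 always on the right, so vector and hemisphere cannot be told apart. The HA-negative nuclei came from the same injected hemispheres and are not from tissue that was never injected.

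Cyrano is conserved among vertebrates and is abundant in neurons. It holds a site that pairs almost completely with the microRNA miR-7, and this pairing is known to bring about destruction of miR-7 in mouse brain rather than silencing of Cyrano. The ubiquitin ligase adaptor ZSWIM8 acts on the Argonaute protein that carries the microRNA. Low miR-7 in turn spares Cdr1as, a circular RNA with many miR-7 sites that is made from the Cdr1 locus.

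The sequences that define this circuit are shown first, because they say which part of the transcript meets miR-7. The mature microRNAs are from RefSeq on GRCm38.p6, written 5′ to 3′, with the seed (bases 2 to 8) in capitals. Both share 1 seed.
miR-7a-5p: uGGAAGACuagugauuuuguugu
miR-7b-5p: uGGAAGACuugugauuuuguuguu
In the site and the window below, which were read from GENCODE release M21 transcripts (GRCm38) and written 5′ to 3′, capitals mark the match to the seed followed by an A. The first is the extensively paired site and the second is the only other 8-base match, shown to contrast the pairing upstream of the same capitals.
Oip5os1 paired site, chr2:119602137-119602161, plus strand: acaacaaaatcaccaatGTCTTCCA
Oip5os1 other window, ending at chr2 position 119599971, plus strand: caggttttttttttaatGTCTTCCA
The paired site matched 22 of the 23 bases of miR-7a-5p by Watson-Crick pairs, and 22 of its own 25 bases were paired, while the other window paired only through its 8 capitals. With 1 more base at its 5′ end, the paired site matched all 24 bases of miR-7b-5p. Among 30254 annotated long noncoding transcripts, 1 had pairing to miR-7a-5p at least this extensive, and it was the Oip5os1 transcript itself.

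The Oip5os1 gene (ENSMUSG00000085438, a lincRNA) spans chr2 119594297 to 119607502 on the plus strand of GRCm38. Of its 2 annotated transcripts, each with 3 exons, the longer has 8300 bases (ENSMUST00000153581.1) and the shorter has 1381 (ENSMUST00000147425.1) and ends at 119600746. The paired site lies in exon 3 of the longer transcript, at bases 2935 to 2959, and beyond the end of the shorter one. Matches were searched on the transcript strand as GTCTTCC (the 7mer-m8), TCTTCCA (the 7mer-A1) and both together (the 8mer). The longer transcript had 2 8mers and 4 further 7mer-A1 matches, and the shorter had 1 8mer and 1 7mer-A1 match. Of 531 long noncoding transcripts of similar length (within a factor of 2 of the longer one), 12.8% held an 8mer and 1.13% held at least 2. The table has 1 row for the gene, so a count does not tell which transcript, or whether an RNA with the paired site, was measured.

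**Figure D1:**
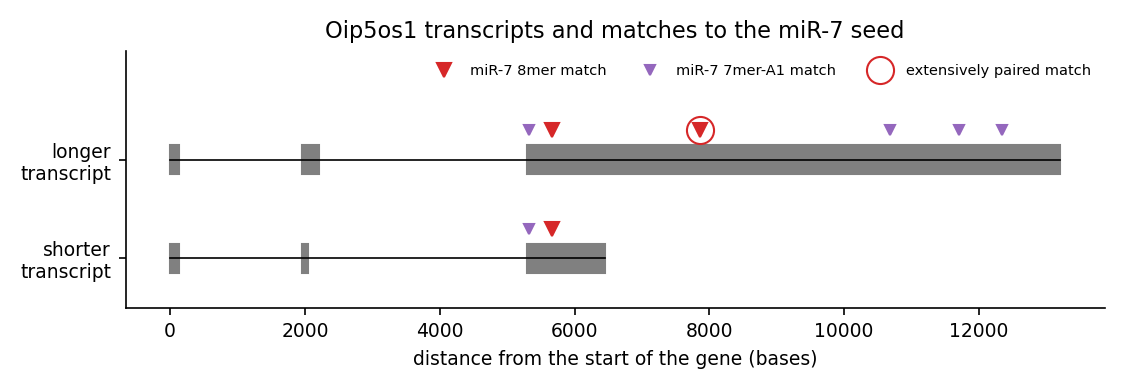
Exons of the 2 annotated Oip5os1 transcripts, drawn to scale by distance from the gene start in bases, with the matches to the miR-7 seed marked by class. The extensively paired site lies in the part of exon 3 that only the longer transcript holds.

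Libraries held between 248612 and 902944 counts in total, over 8687 to 13668 detected genes. Of the 14 HA-positive libraries, 4 detected fewer than 10000 genes: empty of animals 17, 21 and 22, and g4 of animal 18. The g4 HA-positive library of animal 19 stood apart. It held Xist at 614 CPM (counts scaled to library size, here with TMM scaling over all 28 libraries) beside Y-linked transcripts at 89.4 CPM, while Xist had 0 counts in the other libraries of animals 17 to 20. Its summed oligodendrocyte markers were at 1472 CPM against 106 to 224 CPM in the other 6 g4 HA-positive libraries. Results are therefore also given without it. Markers of excitatory neurons of the cortex were counted in every group (12 of 12), with mean sums of 1375 to 1923 CPM. The striatal marker list was counted too, at mean sums of 237 to 1098 CPM, so RNA of genes typical of the neighbouring striatum was present. Single HA-negative libraries ranged from 681 to 1868 CPM with empty and from 244 to 1340 CPM with g4.

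Oip5os1 was well measured. It had 138 to 490 counts per library and ranked between 38th and 223rd of all genes by count. Exact Poisson intervals (95%) on those counts had half-widths of 8.96 to 17.1% of the value, and these cover counting error only.

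In empty HA-positive nuclei, Oip5os1 stood at 559, 616, 658, 660, 718, 929 and 1164 CPM. In g4 HA-positive nuclei the 7 libraries lay at 361, 362, 372, 389, 395, 460 and 509 CPM. Every g4 library was below every empty library, and the gap lay between 509 and 559 CPM. Of 5011 genes tested in this comparison, 0.0998% were lower with g4 without overlap and 0.0599% were called by edgeR's test in either direction. The rule that chose the gene had used this contrast, and nothing is read from those shares. The means were 758 ± 214 CPM (SD, n = 7) with empty and 407 ± 56.4 CPM (SD, n = 7) with g4. The log2 fold change was -0.89 ± 0.15 (SE).

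The same order held within each animal. The log2 ratio of the g4 to the empty HA-positive library was -1.34 in animal 17, -0.64 in animal 18, -0.87 in animal 19, -0.86 in animal 20, -0.99 in animal 21, -0.83 in animal 22 and -0.52 in animal 23. It was thus negative in 7 of 7 animals, with a mean of -0.86 ± 0.26 (SD, n = 7), and the g4 level was 39.5 to 69.6% of the empty level. The ratio of animal 19 rests on the g4 library that held both Xist and Y-linked transcripts. Animal 17, with the widest ratio, had the empty library that was the highest of all 28. Without animal 17 the fitted log2 fold change was -0.79. Without the g4 library of animal 19, the highest of its group, it was -0.96. Without the 4 libraries that detected fewer than 10000 genes, the empty mean was 691 ± 164 CPM (SD, n = 4) and the g4 mean 409 ± 61.5 CPM (SD, n = 6), with a log2 fold change of -0.74.

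**Figure D2:**
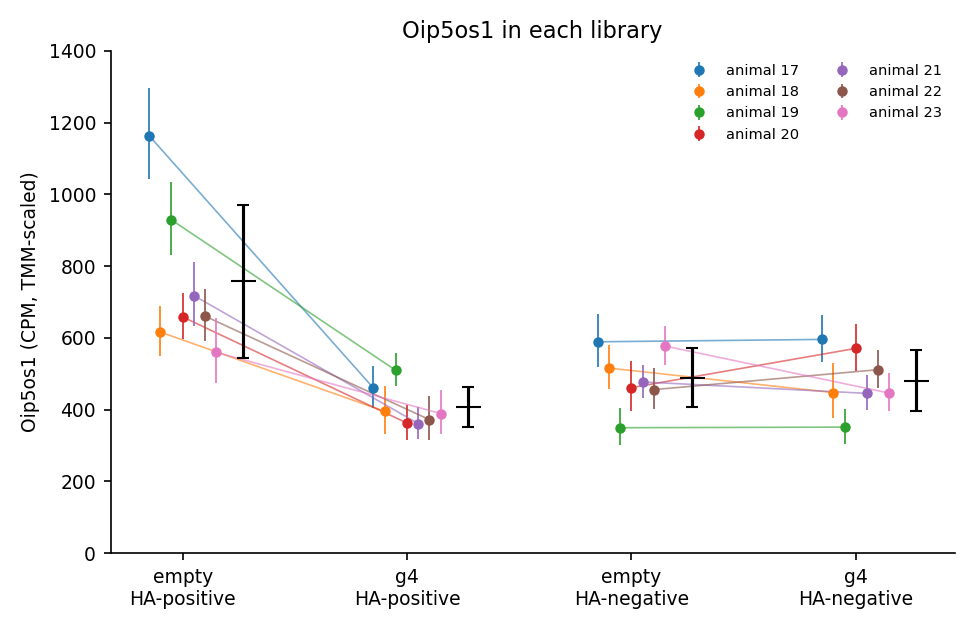
Oip5os1 in CPM (linear axis) in each of the 28 libraries, by group and coloured by animal. Thin vertical lines are 95% exact Poisson intervals of the counts, black bars the group mean and SD, and sloping lines join the libraries of an animal within a fraction. The g4 HA-positive libraries all lie below the empty HA-positive ones, and both HA-negative groups lie between 350 and 596 CPM.

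In HA-negative nuclei the ranges of the vectors overlapped. The empty libraries stood at 350, 456, 461, 477, 516, 577 and 589 CPM. The g4 libraries stood at 351, 445, 446, 447, 511, 571 and 596 CPM. Both groups covered nearly one range, and both lowest values came from animal 19. The means were 489 ± 81.6 and 481 ± 84.2 CPM (SD, n = 7 each), and the log2 fold change was -0.03 ± 0.12 (SE). Within animals the ratio was lower with g4 in 3 and higher in 4, between -0.37 and 0.31.

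The fitted difference between the g4 effects in HA-positive and HA-negative nuclei was -0.87 ± 0.19 (SE) on the log2 scale. By animal it ranged from -1.35 in animal 17 to -0.15 in animal 23 and was negative in 7 of 7, with a mean of -0.84 ± 0.42 (SD, n = 7). In animal 23 the empty HA-positive library was the lowest of its group, and the HA-negative pair also had less Oip5os1 with g4. This value uses the same HA-positive and HA-negative libraries as the vector comparisons above and is no separate observation.

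Sorted by fraction, the 2 vectors gave opposite signs. With empty, Oip5os1 was higher in HA-positive than in HA-negative nuclei in 6 of 7 animals, with log2 ratios from -0.05 in animal 23 to 1.41 in animal 19 and a fitted log2 fold change of 0.62 ± 0.15 (SE). With empty, 6 of 7 HA-positive libraries lay above every HA-negative one. With g4, it was lower in HA-positive nuclei in 6 of 7 animals, with ratios from -0.66 to 0.54 and a fitted log2 fold change of -0.24 ± 0.12 (SE). The only positive ratio was that of animal 19, whose g4 HA-positive library stood apart, and the fold change was -0.30 without that library. The g4 groups overlapped, since 3 of 7 HA-negative libraries were above every HA-positive one.

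From the lowest mean to the highest, the order was g4 HA-positive, then g4 HA-negative, then empty HA-negative, then empty HA-positive. The g4 groups overlapped, and the HA-negative groups did not differ beyond their spread. The empty groups overlapped through 1 empty HA-positive library, that of animal 23. With TMM scaling the coefficient of variation was 28.2% in empty and 13.9% in g4 HA-positive nuclei and 16.7 and 17.5% in the HA-negative groups. With plain library sizes the same values were 20.9, 19.3, 19.2 and 23.4%, so the order of the groups by spread depends on the scaling. Counting error alone averaged 5.92 to 6.92% per group. Animal 17 was the highest of its group in 3 of the 4 groups and second in g4 HA-positive nuclei. Animal 19 was second and first in the HA-positive groups and lowest in both HA-negative ones.

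**Figure D3:**
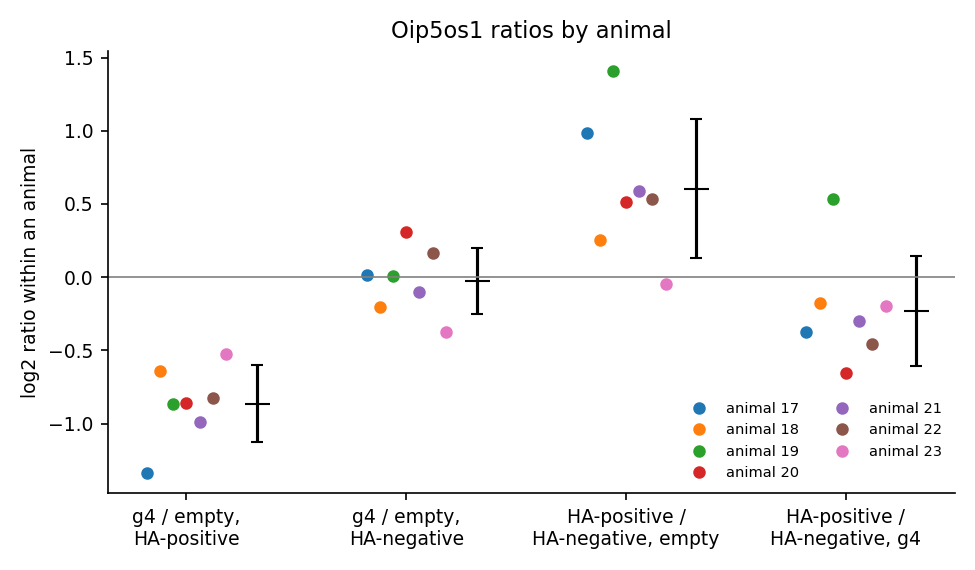
Log2 ratio of Oip5os1 within each animal for 4 comparisons (each vector contrast and each fraction contrast), with 1 point per animal and a bar for the mean and SD. All 7 points lie below 0 for g4 against empty in HA-positive nuclei and spread around 0 in HA-negative nuclei.

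Cell type markers moved with some of these levels, and in libraries of sorted nuclei fewer cells of a type and less RNA per nucleus cannot be told apart. The summed level of the 12 inhibitory neuron markers, all counted, was 3179 to 4508 CPM in empty HA-positive libraries and 1870 to 3793 CPM in g4 HA-positive ones, against 886 to 1383 CPM in the HA-negative groups. The empty libraries of animals 17 and 19, with the highest Oip5os1, also had the highest inhibitory sums of their group, 4508 and 3834 CPM. Their excitatory sums were 895 and 1228 CPM, against 1090 to 1660 CPM in the other 5. The empty library of animal 23, with the lowest Oip5os1 at 559 CPM, had an inhibitory sum of 3512 CPM. With g4, the HA-positive library of animal 19 had the highest Oip5os1, 509 CPM, but the lowest inhibitory sum, 1870 CPM. That of animal 17, second in Oip5os1 at 460 CPM, had the highest inhibitory sum, 3793 CPM. The inhibitory sums of the HA-positive groups overlapped in a range chosen after the values were seen. In it, 5 empty libraries had 559 to 718 CPM of Oip5os1 and 2 g4 libraries had 362 and 460 CPM. Every g4 library was already below every empty one in HA-positive nuclei, so this outcome was fixed and nothing is read from it. The 8 astrocyte markers, all counted, summed to 728 to 1485 CPM with empty and 981 to 2705 CPM with g4, where the library of animal 21 was the highest and the next was at 1600 CPM. The 9 oligodendrocyte markers summed to 52.0 to 126 CPM with empty and 106 to 1472 CPM with g4 (224 CPM at most without animal 19). Of 7 microglia markers, Cx3cr1, P2ry12 and C1qa were at 0 in empty HA-positive nuclei, where the list summed to 6.99 to 44.5 CPM, against 2.74 to 310 CPM with g4. The 310 CPM came from animal 19. Without that library the g4 libraries reached 38.8 CPM, and their mean fell from 62.9 to 21.7 CPM, against 24.1 CPM with empty. Sums of the 5 oligodendrocyte precursor markers reached 66.2 CPM with empty and 99.8 CPM with g4. The latter was again animal 19, and without it the g4 libraries reached 28.8 CPM, with a mean of 11.6 CPM against 21.9 CPM with empty. Those of the 4 endothelial and 4 mural and fibroblast markers stayed under 28 CPM in both. The most abundant members were Gad1 for inhibitory neurons (728 ± 240 and 635 ± 196 CPM with empty and g4, SD, n = 7 each) and Slc1a2 for astrocytes (649 ± 192 and 1019 ± 326 CPM). The part of these markers in the Oip5os1 difference was not tested.

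**Figure D4:**
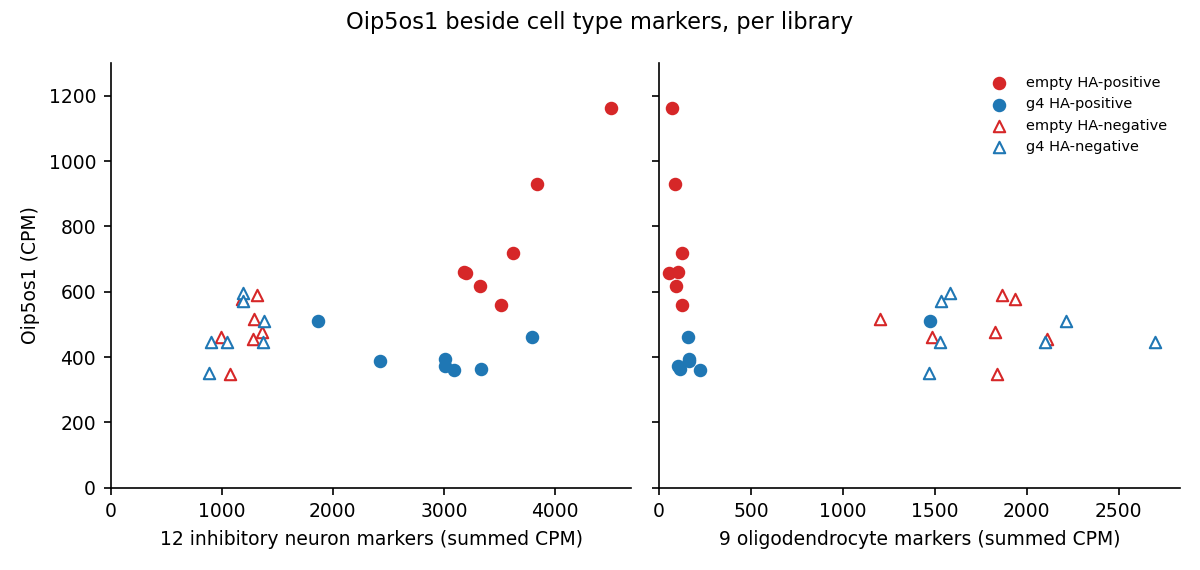
Oip5os1 in CPM against the summed CPM of 12 inhibitory neuron markers (left) and 9 oligodendrocyte markers (right), 1 point per library, coloured by vector, with filled circles for HA-positive and open triangles for HA-negative nuclei. The HA-positive groups do not overlap in Oip5os1, so any range of marker sums would separate them.

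No tested gene of the miR-7 circuit was called between the vectors. The list of 36 names held the ZSWIM8 ligase and its partners, the Argonautes, tailing and trimming enzymes, microRNA processing factors, the miR-7 loci and the Cdr1 locus. Of these, 31 were in the table and 27 had a count, and with g4 against empty in HA-positive nuclei 21 were tested. None was called by edgeR's quasi-likelihood test with Benjamini-Hochberg adjustment (0 of 21), where 0.0599% of all genes were called. An unadjusted p under 0.05 was found for 0 of the 21, against 336 of all 5011 genes tested. Of the 21, 12 were higher and 9 lower, with a median log2 fold change of 0.01 against -0.01 over all genes tested. By DESeq2 and limma voom 0 of them were called as well.

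Zswim8 itself, which encodes the ligase adaptor, was sparse at 36.3 ± 29.7 CPM with empty and 43.9 ± 21.6 CPM with g4 (SD, n = 7 each) in HA-positive nuclei, with a log2 fold change of 0.25 ± 0.47 (SE). Ago2, an Argonaute that carries microRNAs, was at 139 ± 61.7 and 124 ± 18.8 CPM (SD, n = 7 each). Hnrnpk, whose intron holds a miR-7 hairpin, was at 277 ± 76.8 and 242 ± 42.3 CPM (SD, n = 7 each), a log2 fold change of -0.20 ± 0.17 (SE). Elavl1 and Gak, reported partners of human OIP5-AS1, had log2 fold changes of -0.26 ± 0.28 and 0.26 ± 0.25 (SE). The smallest p of the list belonged to Eloc, a subunit of the ligase, with a log2 fold change of -0.69 ± 0.39 (SE) and an edgeR adjusted p of 0.754. The miR-7 loci Mir7-1, Mir7-2 and Mir7b had 0 counts in every library, so the microRNA itself was not measured.

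Cdr1os, a long transcript across the Cdr1 locus from which Cdr1as is made, was higher in HA-positive nuclei. With empty it ranged from 1441 to 3054 CPM (median 2735) in HA-positive and from 1355 to 1783 CPM (median 1562) in HA-negative nuclei. The log2 fold change was 0.60 ± 0.14 (SE; edgeR adjusted p = 0.00492; higher in 7 of 7 animals), and the groups overlapped. With g4 it ranged from 1533 to 2877 CPM (median 2213) against 1278 to 2316 CPM (median 1404). There the log2 fold change was 0.48 ± 0.14 (SE; edgeR adjusted p = 0.048; higher in 7 of 7 animals), a call that held in 7 of 16 alternative settings, with adjusted p between 0.000415 and 0.195. Cdr1os was the only circuit gene called in either comparison, 1 of 22 tested with empty and 1 of 23 with g4, where 6.99 and 6.4% of all genes were called. Between vectors in HA-positive nuclei its log2 fold change was -0.15 ± 0.15 (SE; edgeR adjusted p = 0.914). Without strand information, linear Cdr1os, circular Cdr1as and Cdr1 cannot be told apart in these counts. In HA-negative nuclei and for the difference of g4 effects, 0 of 24 and 0 of 25 circuit genes were called by edgeR, and 0% of all genes were called. There 0 circuit genes had an unadjusted p under 0.05, against 238 of 6262 and 357 of 7197 among all genes tested. DESeq2 and voom called 0 circuit genes there too. The smallest p values belonged to Tut7, a tailing enzyme, with a log2 fold change of -0.44 ± 0.25 (SE) in HA-negative nuclei, and to Arih1, a ligase partner, with -0.64 ± 0.33 (SE) for the difference.

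Genes reported as miR-7 targets were also without a call between the vectors. Of 23 such genes, all counted, 15 were tested in HA-positive nuclei, and 0 were called by edgeR, where 0.0599% of all genes were called. Their median log2 fold change was -0.01, as over all genes, with 7 higher and 8 lower. An unadjusted p under 0.05 was found for 1 of the 15, against 336 of all 5011 genes tested. It was Cplx1, with a log2 fold change of -0.47 ± 0.21 (SE; edgeR adjusted p = 0.73), lower with g4 in 5 of 7 animals. In HA-negative nuclei 0 of 18 and for the difference of g4 effects 0 of 18 were called by edgeR, where 0% of all genes were called. There 1 and 2 targets had an unadjusted p under 0.05, against 238 of 6262 and 357 of 7197 among all genes tested. Yy1, a transcription factor, had the smallest p in HA-negative nuclei (log2 fold change -0.79 ± 0.30, SE; edgeR adjusted p = 0.998). All these counts are of nuclear RNA, so levels of the targets in the cytoplasm were not measured.

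Some targets were called between the fractions. Cplx1, which encodes the presynaptic protein complexin 1, was higher in HA-positive nuclei, with 564 ± 204 against 192 ± 83.6 CPM (SD, n = 7 each) for empty. Its log2 fold changes were 1.54 ± 0.28 (SE; edgeR adjusted p = 0.00222) with empty and 1.48 ± 0.17 (SE; edgeR adjusted p = 4.46e-07) with g4, and it was higher in 7 of 7 animals with each. With g4, Basp1, a membrane protein of growing axons, was lower in HA-positive nuclei, with a log2 fold change of -0.68 ± 0.18 (SE; edgeR adjusted p = 0.014) and lower in 6 of 7 animals. Ptk2, the focal adhesion kinase, was lower too, with a log2 fold change of -0.65 ± 0.20 (SE; edgeR adjusted p = 0.0398) in 7 of 7 animals. The Ptk2 call held in 6 of 16 alternative settings, with adjusted p from 0.0234 to 0.0999, and the Basp1 call in 12 of 16. Of the targets tested, 2 of 16 were called with empty and 3 of 17 with g4, where 6.99 and 6.4% of all genes were called.

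A wider set was taken from sequence. Of 20994 genes with an annotated 3′ UTR, 4879 held a match to the miR-7 seed in the longest one, 743 of them an 8mer. With g4 against empty in HA-positive nuclei, 1589 tested genes with a match and 3238 without had the same median log2 fold change to 2 decimals, -0.01. The difference between these medians was 0.0043, and computed within animals it ranged from -0.07 to 0.08 and was above 0 in 4 of 7. For the 233 tested genes with an 8mer, the median differed from genes without a match by -0.0077. In the HA-negative nuclei the difference for any match was 0.0076. These too are levels of nuclear RNA only.

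**Figure D5:**
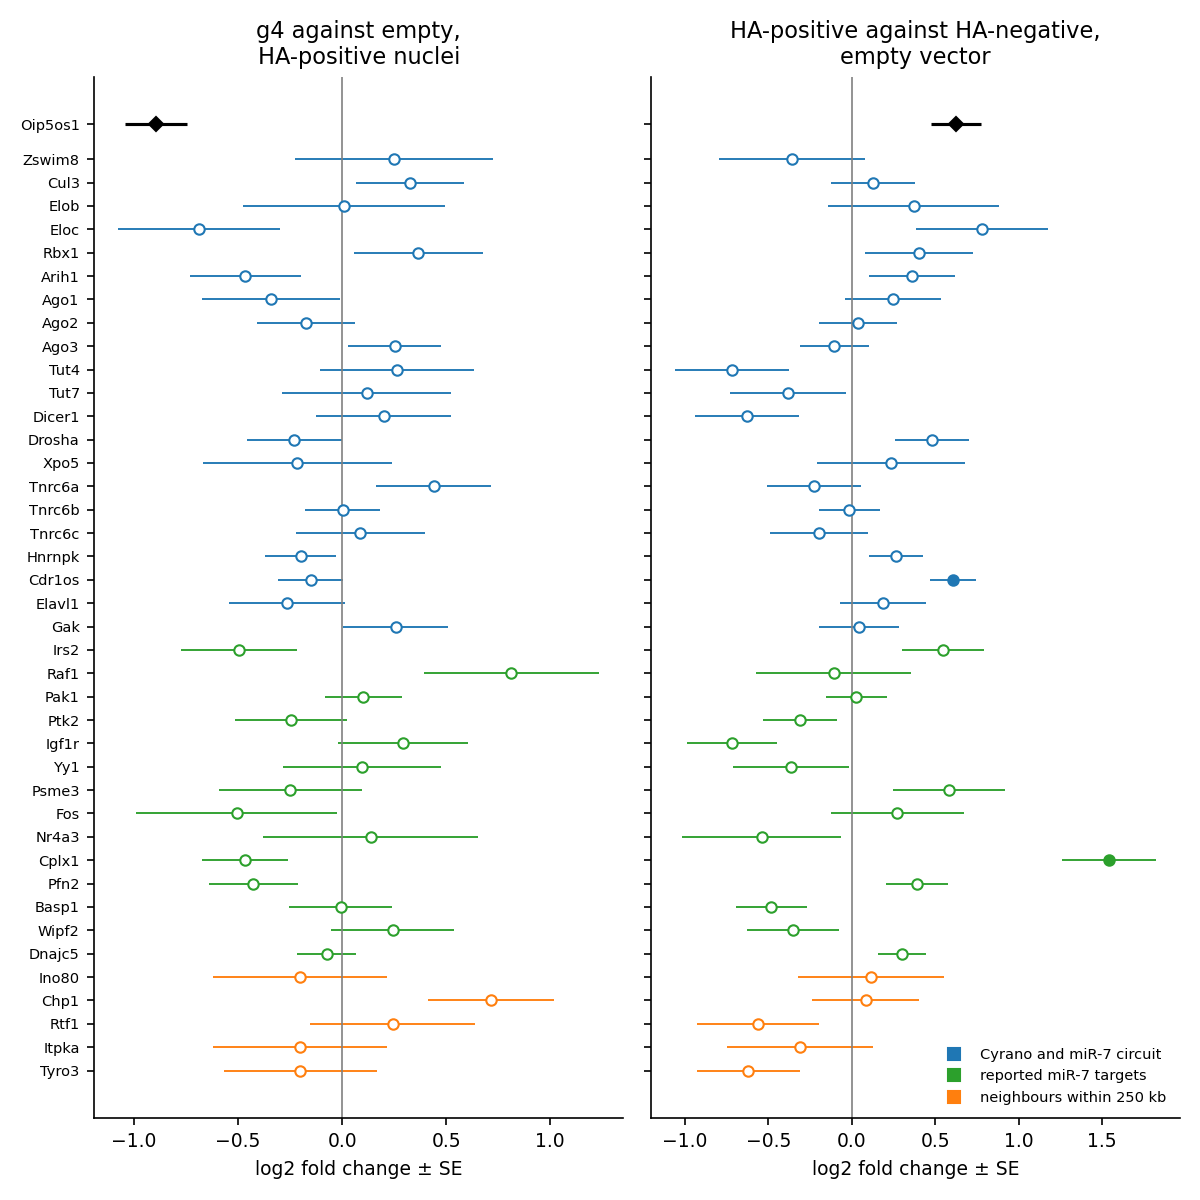
Log2 fold changes with SE of tested circuit, target and neighbour genes, for g4 against empty in HA-positive nuclei (left) and for HA-positive against HA-negative nuclei with empty (right), coloured by list, with filled circles for genes called by edgeR. The black diamond is Oip5os1, which was not tested, and the filled circles on the right are Cdr1os and Cplx1, while none on the left is filled.

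Around the locus, 15 of the 41549 genes lay within 250 kb, and by the annotation none of these overlapped Oip5os1. Annotated genes outside the 41549 were not searched, so exons shared with such a gene were not checked. Among the genes searched, the nearest neighbour of Oip5os1 is Oip5, a gene of chromosome segregation in dividing cells. It lies 2010 bases beyond the end of Oip5os1 on the other strand. Oip5 had 5 counts in all 28 libraries, too few to be tested. On the other side, 7270 bases before the start, lies Chp1, which encodes a calcineurin-like calcium-binding protein. Chp1 ranged from 22.1 to 136 CPM (median 64.6) with empty and 67.6 to 130 CPM (median 103) with g4 in HA-positive nuclei. Its log2 fold change was 0.71 ± 0.30 (SE; edgeR adjusted p = 0.73), opposite in sign to that of Oip5os1. With g4 it was higher in HA-positive than in HA-negative nuclei, by 0.90 ± 0.22 (SE; edgeR adjusted p = 0.0105) on the log2 scale, in 6 of 7 animals. The call held in 13 of 16 alternative settings and was lost without animal 20, 21 or 22, with adjusted p from 0.00303 to 0.0843. It was the only call among 5 neighbours tested (1 of 5), where 6.4% of all genes were called. Tyro3, a receptor tyrosine kinase gene, had a log2 fold change of -0.82 ± 0.25 there (SE; edgeR adjusted p = 0.0502), which was not called. When the fit took each animal as a block, its edgeR adjusted p was 0.0174. Between vectors 0 of 5 neighbours were called by edgeR in HA-positive nuclei, where 0.0599% of all genes were called. An unadjusted p under 0.05 was found for 1 of the 5, against 336 of all 5011 genes tested. In HA-negative nuclei 0 of 5 were called, where 0% of all genes were called. There 0 of the 5 had an unadjusted p under 0.05, against 238 of all 6262 genes tested. Itpka had the smallest p in HA-negative nuclei (log2 fold change -0.26 ± 0.38, SE). For the difference of g4 effects 0 of 6 were called, where 0% of all genes were called. An unadjusted p under 0.05 was found for 1 of the 6, against 357 of all 7197 genes tested. Between fractions with empty 0 of 5 were called, where 6.99% of all genes were called. There 0 of the 5 had an unadjusted p under 0.05, against 1065 of all 5538 genes tested. With so few neighbours tested, nothing is read from these counts.

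Set against other long noncoding RNAs per kilobase of exon, Oip5os1 was at 91.2 ± 25.7 CPM per kb in empty and 49.0 ± 6.79 in g4 HA-positive nuclei (SD, n = 7 each). Meg3, an imprinted neuronal RNA, was at 73.4 ± 20.9 and 84.2 ± 16.4 CPM per kb, and Snhg11 at 65.4 ± 13.9 and 80.0 ± 19.1 (SD, n = 7 each). Rian was at 33.5 and 43.5, Peg13 at 51.2 and 51.2, Snhg14 at 19.1 and 20.2 and Kcnq1ot1 at 3.18 and 3.50 mean CPM per kb in the same groups. Malat1, a nuclear RNA of speckles, was far more abundant at 1157 ± 247 and 1584 ± 440 CPM per kb (SD, n = 7 each). The length used was that of all annotated exons merged, and which transcripts were measured is not known. In mean CPM with empty in HA-positive nuclei, Meg3 was at 1328 and Oip5os1 at 758, so their order there depends on this scaling. Of 8 listed long noncoding RNAs tested between vectors in HA-positive nuclei, 7 were higher with g4, where 49.2% of all genes were higher. By edgeR 0 of the 8 were called, where 0.0599% of all genes were called. An unadjusted p under 0.05 was found for 2 of the 8, against 336 of all 5011 genes tested. In HA-negative nuclei 2 of 9 were higher with g4, where 49.2% of all genes were higher, and 0 were called, where 0% of all genes were called. There 0 of the 9 had an unadjusted p under 0.05, against 238 of all 6262 genes tested. Between fractions with empty, 1 of 9 was called, where 6.99% of all genes were called. Malat1 was lower in HA-positive nuclei with empty, with a log2 fold change of -0.63 ± 0.15 (SE; edgeR adjusted p = 0.00675), opposite in sign to Oip5os1. With g4 the log2 fold change of Malat1 between fractions was 0.003 ± 0.15 (SE; edgeR adjusted p = 0.996). There 0 of 9 were called, where 6.4% of all genes were called.

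Genes whose levels ran most like Oip5os1 were sought among 5847 genes with a mean of at least 20 CPM, by Pearson's r of log2(CPM + 1). Over the 28 libraries the highest were Hapln4 (0.67), Purb (0.66), Ttll7 (0.65), Dzank1 (0.65), Rab14 (0.65), Hcn2 (0.64), Stk39 (0.63) and Lifr (0.63). All libraries share the groups, animals and depth that shape such values. After the group means were removed, r was 0.31, 0.62, 0.44, 0.70, 0.43, 0.37, 0.47 and 0.38 in the same order, beside a 5th to 95th percentile of -0.42 to 0.36 over the 5847 genes. That measure uses the same libraries as the choice. Hapln4, which encodes a link protein of perineuronal nets, was at 115 ± 42.1, 55.0 ± 24.9, 48.9 ± 13.0 and 50.4 ± 10.7 CPM (SD, n = 7 each) in HA-positive nuclei with empty and g4 and in HA-negative nuclei with empty and g4. Lifr, a cytokine receptor subunit, was at 135 ± 43.1, 76.4 ± 11.7, 60.0 ± 11.9 and 70.0 ± 25.7 CPM (SD, n = 7 each) in the same order. Since these genes were picked for their r over the same libraries, such likeness by group is fixed by the choice. None of the 8 was called between vectors in HA-positive nuclei, with edgeR adjusted p of 0.339 and above.

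Within the 14 HA-positive libraries, where Oip5os1 splits the vectors into separate ranges and r mostly follows that split, the highest were Ptpn4 (0.90), Pa2g4 (0.84), Syt2 (0.81), Hapln4 (0.79) and Entpd7 (0.79). The lowest were Sqle (-0.90), Ptpdc1 (-0.89), Kcnq3 (-0.89), Frrs1l (-0.88) and Tmem64 (-0.88). Syt2, a calcium sensor of fast transmitter release, was at 196 ± 90.7 CPM with empty and 89.1 ± 28.3 CPM with g4 (SD, n = 7 each). Kcnq3, a subunit of the M-current potassium channel, ran the other way at 356 ± 58.6 and 528 ± 46.9 CPM (SD, n = 7 each). Sqle, an enzyme of cholesterol synthesis, was at 15.4 ± 6.95 and 36.2 ± 6.83 CPM (SD, n = 7 each). None of those tested between the vectors was called, with edgeR adjusted p of 0.139 and above.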

How the data were processed

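The libraries were made from nuclear RNA of sorted nuclei (picogram amounts, per the labels' protocols). The values are raw read counts, as the labels call the deposited tables, with a column for each library. The genome build was GRCm38, per the submitters' processing notes. For the aligner, the counter, the strand setting and molecular identifiers, the answer is: not given in the sources used here. Reads of overlapping genes and of antisense transcripts therefore cannot be told apart. Cells without a value were read as 0, and 1 entry that names no gene, with 0 counts, was left out. For 3 animals the number in the column name was 1 higher than in the title, and samples were tied to columns through the sample descriptions.

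Counts were scaled with TMM factors. All genes were fitted by edgeR (version 4.0.16, R 4.3.3) with its robust two-sided quasi-likelihood test after filterByExpr, and called where the p adjusted by Benjamini-Hochberg over all genes tested was under 0.05, in 5 comparisons. The procedure was tested on simulated data. SE is the log2 fold change divided by the square root of F. DESeq2 1.42.0 and limma 3.58.1 (voom) were alternatives. Positions came from GENCODE release M21, which matched 41474 gene identifiers.

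Libraries of 1 animal share that animal, which pairs them by design. The correlation of their deviations from the group means between vectors was -0.06 to 0.07 in HA-positive and -0.02 to 0.17 in HA-negative nuclei, and between fractions it was -0.01 to 0.06 with empty and -0.13 to 0.18 with g4, and the fit with the animal as a block was an alternative. Oip5os1, the gene lists and the rule for naming genes were chosen with earlier results of these data known. That rule took every called list member, 8 set genes of the lists, the smallest p in a list without calls, and the 8 genes with the highest r over 28 libraries, and the 5 highest and 5 lowest over the HA-positive libraries. The values of 1 listed target are not reported here, in the text or in the plot of list members, though it stays in the counts of its list.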

Additional observations from a re-analysis of the deposited data

Results flagged for a closer look

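Of 205 groups of 7 values screened (164 of gene levels, 36 of marker sums and 5 of Oip5os1 ratios by animal), 19 had a highest or lowest library whose gap to the next, as a share of the range of the group, exceeded the limit of 0.568 for 7 samples. Chance alone passes this limit in about 1 of 20 groups. No group of Oip5os1 levels did.

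The g4 HA-positive library of animal 19 stood above the other 6 for the sums of oligodendrocyte markers (1472 CPM, gap 0.913), microglia markers (310 CPM, gap 0.883), striatal projection neuron markers (515 CPM, gap 0.847) and oligodendrocyte precursor markers (99.8 CPM, gap 0.725). The ratio of HA-positive to HA-negative Oip5os1 with g4 in animal 19 was apart from the other 6 too (log2 ratio 0.54, gap 0.601). In animal 21, the astrocyte sum was apart in the g4 HA-positive library (2705 CPM, gap 0.641), and the oligodendrocyte precursor sum in the empty HA-positive (66.2 CPM, gap 0.71) and g4 HA-negative libraries (238 CPM, gap 0.642).

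Among empty HA-positive libraries, that of animal 17 was highest for Ptpn4 (283 CPM, gap 0.607) and Pa2g4 (76.9 CPM, gap 0.576). That of animal 23 was highest for Arih1 (170 CPM, gap 0.574) and lowest for Eloc (3.70 CPM, gap 0.685). In g4 HA-positive nuclei, animal 18 was highest for Pa2g4 (38.4 CPM, gap 0.624). In empty HA-negative nuclei, animal 18 was highest for Ptpdc1 (43.1 CPM, gap 0.602). In g4 HA-negative nuclei, animal 17 was highest for Ptk2 (173 CPM, gap 0.623), animal 19 was highest for Cplx1 (231 CPM, gap 0.571) and lowest for Yy1 (8.48 CPM, gap 0.635), and animal 18 was highest for Meg3 (2059 CPM, gap 0.764) and lowest for Eloc (13.0 CPM, gap 0.6).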

How the results depend on the processing

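The direction of the Oip5os1 log2 fold change was kept in the 16 alternatives for g4 against empty in HA-positive nuclei (-0.96 to -0.74), the 16 for the difference of g4 effects (-0.97 to -0.72), the 15 for fraction with empty (0.49 to 0.73) and the 16 for fraction with g4 (-0.37 to -0.16). In HA-negative nuclei it ranged from -0.09 to 0.04 and passed 0 without animal 18 and without animal 23. With the animal as a block (replicate block), these were -0.87, -0.84, 0.60, -0.23 and -0.03 in HA-negative nuclei. Circuit genes called between fractions with empty were 2 without a filter on low counts (1 in the report). With g4, circuit genes called were 0 with DESeq2 size factors, with plain library sizes and without the HA-positive libraries under 10000 genes, and 0 to 1 with 1 animal left out (0 without animal 18, 19, 20, 21 or 23). Targets called with g4 were 1 with plain library sizes and 1 to 2 with 1 animal left out (1 without animal 17, 20 or 23; 3 in the report), and 3 with the animal 19 library of g4 HA-positive nuclei left out. Neighbours called with g4 were 2 with DESeq2 size factors, without a filter, with the DESeq2 test, with the replicate block and with the animal 19 library of g4 HA-positive nuclei left out, and 0 to 2 with 1 animal left out (0 without animal 20, 21 or 22, 2 without animal 19 or 23; 1 in the report). The block moved no other count of calls in these lists. With 8mers alone, the median difference of miR-7 site genes between fractions was 0.043 with empty and 0.026 with g4, against -0.02 and -0.01 for any match. The causes were not tested. Over all genes, the 1 higher and 2 lower calls between vectors in HA-positive nuclei became 14 and 14 without a filter, 4 and 7 with DESeq2, 0 and 1 with voom or the block, and 0 and 0 (426 at an unadjusted p under 0.05) without the libraries under 10000 genes. With empty, the 387 calls between fractions became 233 higher and 428 lower without a filter and 122 and 129 without animal 19. With g4, the 401 calls became 133 and 90 without animal 21, 121 and 97 without animal 20 and 137 and 104 without animal 22. The lowest library, with 138 counts of Oip5os1, has the widest counting interval, 17.1% of its value.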
